A study of Mus musculus with 4 samples.

Results

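The CDK inhibitors and the retinoblastoma family comprise 9 genes here: Cdkn1a, Cdkn1b, Cdkn2a, Cdkn2b, Cdkn2c, Cdkn2d, Rb1, Rbl1 and Rbl2. They were taken by gene symbol from the array annotation, which gave 9 of 31709 gene names and 14 of 39429 probes. RNA of mouse erythrocyte/megakaryocyte progenitors was measured on 4 Agilent arrays with 1 colour. These cells are bipotent blood progenitors that form red cells and platelet-producing megakaryocytes. The groups were wild-type cells from E14.5 fetal liver (E, embryonic day), Ezh2-null cells from fetal liver of the same stage, wild-type cells from adult bone marrow and Ezh2-null cells from adult bone marrow, all on the C57BL/6 background and with 1 array each. Ezh2 is the main histone H3 lysine methyltransferase of Polycomb repressive complex 2 (PRC2). The deleted part of the gene, the way it was deleted, the sorting of the cells and the number of animals per array were not given in the sources used here.

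Cyclin-dependent kinases (CDKs) drive the cell cycle by phosphorylating, among other substrates, the pocket proteins Rb1, Rbl1 (p107) and Rbl2 (p130), which hold E2F transcription factors in check until they are phosphorylated. The INK4 inhibitors Cdkn2a (p16), Cdkn2b (p15), Cdkn2c (p18) and Cdkn2d (p19) bind CDK4 and CDK6, while the CIP/KIP inhibitors Cdkn1a (p21) and Cdkn1b (p27) act on a wider set of cyclin-CDK complexes. The Cdkn2a locus also encodes Arf, which stabilises p53 by binding Mdm2, from a separate first exon. Cdkn2a and Cdkn2b are among the best known targets of PRC2, and red cell precursors leave the cell cycle as they mature.

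PRC2 in mammals gathers at CpG-rich promoters. The 250 bases upstream of the annotated starts are therefore shown for both starts of Cdkn2a, for the 2 other INK4 genes with signal on every array and, for its E2F site, for Rbl1. RefSeq windows on GRCm38.p6 were matched for 8 of the 9 genes, Rb1 having no entry in the table used. Each sequence runs 5′ to 3′ on the strand of the gene, and capitals mark every CpG in the first 4.
Cdkn2a, upstream start of Arf, chr4:89294620-89294869, minus strand: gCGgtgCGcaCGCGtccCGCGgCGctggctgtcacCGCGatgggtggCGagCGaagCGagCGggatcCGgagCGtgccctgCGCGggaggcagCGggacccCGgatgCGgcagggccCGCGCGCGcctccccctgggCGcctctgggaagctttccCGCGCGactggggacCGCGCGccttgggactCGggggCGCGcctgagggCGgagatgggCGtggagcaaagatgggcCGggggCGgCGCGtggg
Cdkn2a, downstream start of p16, chr4:89282193-89282442, minus strand: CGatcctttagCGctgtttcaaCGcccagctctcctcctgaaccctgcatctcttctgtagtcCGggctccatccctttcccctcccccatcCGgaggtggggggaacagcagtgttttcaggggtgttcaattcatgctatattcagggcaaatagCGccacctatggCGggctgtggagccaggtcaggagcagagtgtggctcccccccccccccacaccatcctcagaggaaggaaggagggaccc
Cdkn2c, outer start, chr4:109666757-109667006, minus strand: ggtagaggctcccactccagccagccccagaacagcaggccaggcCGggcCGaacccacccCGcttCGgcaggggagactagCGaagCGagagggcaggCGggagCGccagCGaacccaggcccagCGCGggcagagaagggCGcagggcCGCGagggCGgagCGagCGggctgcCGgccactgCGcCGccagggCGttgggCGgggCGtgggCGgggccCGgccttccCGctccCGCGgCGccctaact
Cdkn2d, chr9:21291210-21291459, minus strand: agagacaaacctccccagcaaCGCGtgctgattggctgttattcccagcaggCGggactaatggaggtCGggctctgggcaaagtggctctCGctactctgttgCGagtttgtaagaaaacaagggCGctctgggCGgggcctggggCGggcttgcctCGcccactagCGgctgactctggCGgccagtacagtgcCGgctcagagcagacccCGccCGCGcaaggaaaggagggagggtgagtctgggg
The Arf window held 40 CpGs, more than 98.7% of the 32851 promoter windows of this length, and the p16 window 7, more than 53.7%. The median window held 6. The outer Cdkn2c window held 29 CpGs and the Cdkn2d window 16. An inner Cdkn2c window, at chr4:109665373-109665622, held 6. Cdkn1b had 28 CpGs and Cdkn2b 12. The GC box letters GGGCGG, searched on both strands, occurred at 3 places in the outer Cdkn2c window and at 3 in the Cdkn2d window. They occurred at 2 places in the Arf window and in 1 Cdkn1a window, and at 1 in those of Cdkn1b and Rbl1. The remaining windows of these genes had none. Of all windows, 32.7% held at least 1.

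The Rbl1 window is shown with its E2F letters in capitals. Those letters (TTTGGCGC, TTTGCCGC, TTTCGCGC or TTTCCCGC on either strand) occurred in 1.86% of all windows and in 2 of the windows of these genes, Rbl1 and the Arf start of Cdkn2a.
Rbl1, chr2:157204535-157204784, minus strand: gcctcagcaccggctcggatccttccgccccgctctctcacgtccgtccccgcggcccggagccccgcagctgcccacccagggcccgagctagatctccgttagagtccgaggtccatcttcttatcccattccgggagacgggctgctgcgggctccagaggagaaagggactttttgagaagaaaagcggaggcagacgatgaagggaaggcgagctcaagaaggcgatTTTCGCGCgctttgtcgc
The match began 18 bases before the Rbl1 start and 99 bases before the Arf start. Factor binding and the histone mark were not measured, so these windows describe the genes and not the arrays.

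For Cdkn2a and Rbl1 the 2 probes of each gene did not report alike, and the first 30 of their 60 bases are given to tell them apart. Their positions count from the transcript's 5′ end, and all probe coordinates here are on mm9.
Cdkn2a probe at position 841, chr4:88920405-88920464, minus strand: ggcatgagaaactgagcgaaggcggccgcg
Cdkn2a probe at position 703, chr4:88920543-88920602, minus strand: cttctagcgatgctagcgtgtctagcatgt
Rbl1 probe at position 2292, chr2:157000761-157000820, minus strand: ccgagaggaattggaggaggggaaaacttg
Rbl1 probe at position 4310, chr2:156972143-156972202, minus strand: acactggaggtttagccttctgaagaatca
The Cdkn2a probe at position 841 is listed for the p16 and the Arf transcript alike, so it cannot tell them apart. The Rbl1 probe at position 2292 is annotated to NM_001139516 and the one at position 4310 to NM_011249, 2 transcripts of the gene.

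Levels below are processed spot intensities in arbitrary units, scaled so that the 75th percentile of the probes detected on all arrays is equal, and detected means flagged as well above background. A level can be compared between arrays for 1 probe but not between probes. Detected probes made up 39.0 to 46.4% of an array, no spot was saturated, and the lowest detected level, the floor, was 9.99 to 19.3. The bone marrow arrays correlated with each other at r = 0.982 over detected probes and the other pairs at 0.915 to 0.937. The Ezh2 probe, whose place relative to the deletion is unknown, read 33.5 and 194 in wild-type and null fetal liver and 35.4 and 70.0 in bone marrow. It was brighter on both null arrays, so it does not check the genotypes, and every genotype direction below rests on the labels. Of 10 erythroid and megakaryocyte markers 9 or 10 were detected on each array, among them Gata1 and Klf1, while Itga2b was detected in null fetal liver alone. Lymphoid markers summed to 183 to 326 on 3 arrays and to 4036 on the null bone marrow array (8 of 11 detected), where Vpreb1 read 2203 and Dntt 1381; Ebf1, Il7r and Rag1 were not detected on any array. Hepatocyte markers summed to 640 and 136 in wild-type and null fetal liver and 51.9 to 52.7 in bone marrow, with Alb and Afp not detected on any array. Of the granulocyte and macrophage markers, Itgam, the brightest, read 104975 and 85224 in wild-type and null fetal liver and 54129 and 53551 in bone marrow. The others summed to 450 to 564, mostly from Csf1r (428 to 494). Csf1r, Mpo and Adgre1 were detected on every array, and Lyz2, Elane and Ngp on none. At most 1 of 5 mast cell and basophil markers and 1 of 3 endothelial markers, Kdr, were detected on an array. The part of other cells in the differences below was not tested. In bulk RNA, fewer cells of a type and less RNA per cell cannot be told apart.

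Of the 9 genes, 4 were detected on every array (Cdkn2a, Cdkn2c, Cdkn2d and Rbl1), 3 on 1 to 3 arrays (Cdkn1a, Cdkn1b and Rb1) and 2 on none (Cdkn2b and Rbl2). By array, 5 and 6 of the genes were detected in wild-type and null fetal liver, and 5 and 4 in wild-type and null bone marrow. Each level is followed by the error that Feature Extraction gave the spot. That error covers the reading of the spot, not the spread between animals. Precision is limited by the number of arrays. The plot of probe levels shows which of these readings lie apart.

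**Figure D1:**
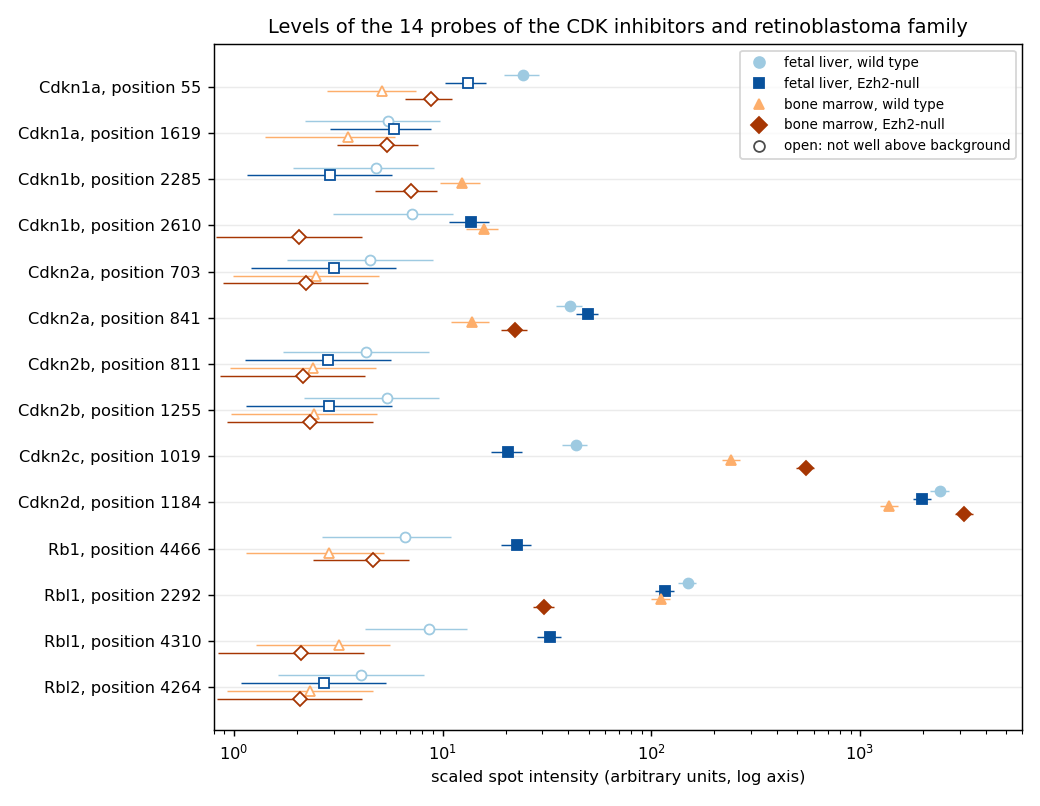
Scaled intensity (arbitrary units, log axis) of each of the 14 probes on the 4 arrays, with bars for the error Feature Extraction gave the spot, shortened to 60% of the level on the low side where longer; filled symbols are well above background and open ones are not. Cdkn2c runs from 20.5 to 548 across the arrays, and both Cdkn2b probes and Rbl2 are open throughout. Positions within a row can be compared, positions between rows cannot.

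Cdkn2c, the p18 inhibitor of CDK4 and CDK6, differed most between arrays. Its probe (chr4:109333508-109333567 on mm9) read 43.3 ± 6.08 and 20.5 ± 3.53 in wild-type and null fetal liver. In bone marrow it read 242 ± 24.3 in wild type and 548 ± 54.8 in null. Both bone marrow levels were above both fetal liver levels, and the order of the genotypes was opposite in the 2 sources. The null array was 2.12-fold lower than wild type in fetal liver (log2 difference -1.08) and 2.26-fold higher in bone marrow (1.18). Bone marrow exceeded fetal liver 5.58-fold in wild type (2.48) and 26.7-fold in null (4.74). The source differences ranged from 1.08 to 3.80 in wild type and from 2.78 to 5.65 in null over 12 alternatives, lowest with normexp background correction and highest with spike-in scaling. In null cells 15 of 16684 genes had a larger rise from fetal liver to bone marrow. The fetal liver difference fell under 2-fold with another background correction, with spike-in scaling and with a pseudocount (range -1.25 to -0.62 over 12 alternatives). The bone marrow genotype difference stayed past 2-fold in all 12 (1.01 to 1.29).

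Cdkn2d, the p19 inhibitor of the same kinases, was detected on every array. Its probe (chr9:21092934-21092993) read 2414 ± 241 and 1985 ± 199 in wild-type and null fetal liver. In bone marrow it read 1381 ± 138 in wild type and 3154 ± 315 in null. Null bone marrow was the highest and wild-type bone marrow the lowest. The null array was 2.28-fold higher than wild type in bone marrow (log2 difference 1.19, and 1.18 to 1.32 over 12 alternatives) and differed by -0.28 in fetal liver. Between the sources it differed by -0.81 in wild type and by 0.67 in null, neither reaching 2-fold. The null value passed 2-fold with the percentile over all probes (1.29) and spike-in scaling (1.57), and the wild-type value with the position trend removed (-1.02). Under spike-in scaling the wild-type value turned to 0.51.

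Cdkn2a, which encodes p16 and Arf, was read by the probe at position 841 alone. It gave 40.6 ± 5.93 and 49.4 ± 5.75 in wild-type and null fetal liver. In bone marrow it gave 13.8 ± 2.84 in wild type and 22.2 ± 3.15 in null, near the floors of 11.1 and 9.99 of those arrays. Both fetal liver arrays were above both bone marrow arrays, and in each source the null array was the higher. The genotype differences, 0.28 in fetal liver and 0.69 in bone marrow on the log2 scale, were both under 2-fold. The fetal liver error ranges overlapped. The fetal liver difference did not keep its sign in 2 of 12 alternatives, while that in bone marrow stayed between 0.22 and 0.79. Bone marrow was 2.95-fold lower than fetal liver in wild type (-1.56) and 2.23-fold lower in null (-1.16). The wild-type difference fell under 2-fold with spike-in scaling (-0.24) and with the pseudocount (-0.93), and the null difference in 7 of 12 alternatives (down to -0.25). The probe at position 703 read 2.21 to 4.48 and was not detected on any array, so the detection of Cdkn2a rests on 1 of its 2 probes.

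Cdkn2b, the p15 inhibitor that neighbours Cdkn2a, was not detected on any array. Its probes at chr4:88952720-88952779 and chr4:88952276-88952335 read 2.13 to 5.39, below the floor of each array. No difference between the genotypes or the sources can be given for it, and both null arrays lay below the detection limit like the wild-type arrays.

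Cdkn1a, the p21 inhibitor induced by p53, was detected on 1 array with 1 of the 2 probes that carry its symbol. The probe near the 5′ end (chr17:29227986-29228045) read 24.3 ± 4.75 in wild-type fetal liver and, below background, 13.2 on the null array of that source and 5.13 and 8.81 in wild-type and null bone marrow. Wild-type bone marrow was at least 2.19-fold lower than wild-type fetal liver, and null fetal liver at least 1.84-fold lower. The first of these bounds fell under 2-fold in 6 of 10 alternatives. The probe near the 3′ end (chr17:29237377-29237436), annotated to another transcript of the gene and printed 10 times per array, averaged 3.51 to 5.83. It was not detected on any array. A probe between them, not counted here because it lacks the symbol, is described in the annotation as the p21 inhibitor. That probe was detected on every array. Its log2 differences were -0.17 between the genotypes in fetal liver and -0.76 between the wild-type sources, neither reaching 2-fold.

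Cdkn1b, the p27 inhibitor that is kept low in cycling cells by the Skp2 ubiquitin ligase, was near the detection limit. The probe at chr6:134873606-134873665 was detected in null fetal liver (13.7) and wild-type bone marrow (15.7), and not in wild-type fetal liver (7.11) or null bone marrow (2.05). The floor of the wild-type fetal liver array, 19.3, lay above both detected levels, so the bounds against that array were 0. The probe at chr6:134875424-134875483 was detected in wild-type bone marrow alone (12.4, against 2.87 to 7.07). Null bone marrow was at least 1.58-fold lower than wild type by the first probe and at least 1.24-fold lower by the second.

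Rbl1, the pocket protein p107 and itself an E2F target, was lowest in null bone marrow. Its probe at position 2292 read 149 ± 15.4 and 116 ± 11.9 in wild-type and null fetal liver. In bone marrow it read 111 ± 11.4 in wild type and 30.6 ± 3.68 in null. Null bone marrow stood below the 3 other arrays, which lay within a 1.34-fold range. The null array was 3.64-fold lower than wild type in bone marrow (log2 difference -1.86), and null bone marrow was 3.79-fold lower than null fetal liver (-1.92). The first stayed past 2-fold in all 11 alternatives that gave a value (-1.86 to -1.03) and the second in all 12 (-2.94 to -1.02). The fetal liver genotype difference was -0.36 and the wild-type source difference -0.42. The probe at position 4310 was detected in null fetal liver alone (32.7 ± 4.32), where it was at least 1.70-fold above wild type and at least 3.28-fold above null bone marrow. On the fetal liver pair the probes thus pointed in opposite directions.

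Rb1, the founding pocket protein, was detected in null fetal liver only. Its probe (chr14:73595408-73595467) was printed 10 times per array. In null fetal liver 8 of 9 usable spots were well above background, with a mean of 22.8 and a range of 16.8 to 31.0. The means elsewhere were 6.61 for the wild-type fetal liver, and 2.85 and 4.66 for wild-type and null bone marrow, with no spot above background. Null fetal liver was at least 1.18-fold above wild-type fetal liver and at least 2.28-fold above null bone marrow. On the log2 scale the former difference, 0.24, was 0 with normexp, -0.25 with the position trend removed and 1.78 without the background filter. The latter bound fell under 2-fold in 7 of 11 alternatives. Rbl2, the pocket protein p130 of quiescent cells, read 2.06 to 4.06 (chr8:93647120-93647179) and was not detected on any array.

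With 1 array per group no comparison of 2 arrays can be tested, and a gene was counted as higher or lower when the arrays differed at least 2-fold. Between the genotypes in fetal liver, 1 of the 7 genes with a value was lower (Cdkn2c) and 0 were higher, against 28.7% of all genes past 2-fold in either direction (15.4% higher and 13.3% lower). Between the genotypes in bone marrow, 2 of 5 were higher in null (Cdkn2c and Cdkn2d) and 1 was lower (Rbl1), against 12.2% of all genes (4.54% higher and 7.64% lower). The lymphoid markers also differed on this pair, with sums of 188 in wild type and 4036 in null. In wild type, bone marrow was higher than fetal liver for 1 of 6 (Cdkn2c) and lower for 2 (Cdkn2a and Cdkn1a), against 44.9% of all genes (13.1% higher and 31.8% lower). In null cells 1 of 6 was higher (Cdkn2c) and 3 were lower (Cdkn2a, Rb1 and Rbl1), against 37.2% of all genes (10.4% higher and 26.9% lower). In fetal liver and both source comparisons a 2-fold difference was thus common among all genes. The comparisons share arrays and their counts are not independent. Median log2 differences of the genes with a value were -0.28, 0.69, -0.61 and -0.81 in this order, beside -0.14, -0.03, -0.58 and -0.51 over all genes.

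**Figure D2:**
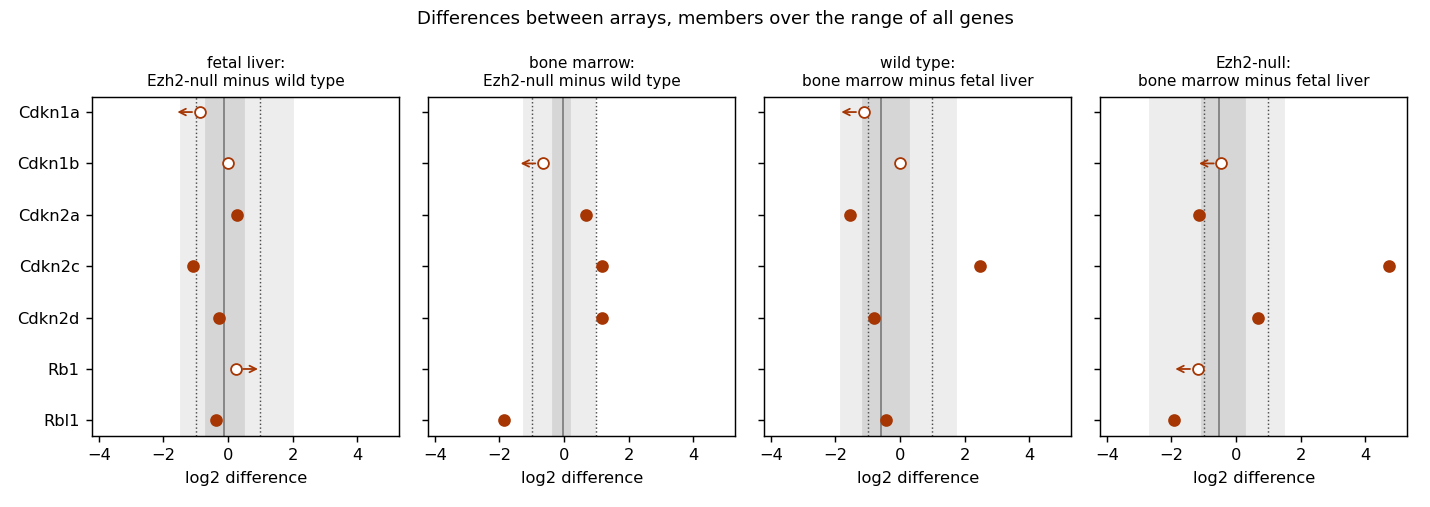
Log2 differences between pairs of arrays for the 7 genes detected on at least 1 array; filled points were detected on both arrays, open points are bounds with the arrow pointing to larger differences (no arrow at 0), and a gene dim on both arrays has no point. The dark and light bands hold the middle 50% and 90% of all genes, the grey line is their median and the dotted lines mark 2-fold. Cdkn2c and Cdkn2d lie right of the light band in bone marrow by genotype, Cdkn2c also in both source comparisons, and Rbl1 lies left of it in bone marrow by genotype.

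The source comparisons depended on scaling. Over all genes, 29.2% of the calls in wild type and 27.9% of those in null were higher in bone marrow. Equal spike-in RNA moved the median of all genes from -0.58 to 0.71 in wild type and from -0.51 to 0.37 in null, and those shares to 94.7 and 75.2%. The percentile over all probes gave 54.9 and 64.2%. Between the genotypes in fetal liver the share of higher calls was 53.7%, with 82.6% under spike-in scaling and 41.7% with the percentile over all probes. Relative to the median of all genes, Cdkn2c stayed 2.88 to 3.09 above it on the log2 scale in wild type and 5.11 to 5.27 above it in null over 5 scalings. Cdkn2a lay -0.98 to -0.87 from the median in wild type and -0.65 to -0.46 in null, within 2-fold of it. Rbl1 lay -1.41 to -1.39 from the median in null and -0.14 to 0.19 in wild type.

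The genotype difference in bone marrow minus that in fetal liver could be formed for the 4 genes detected throughout. It was 2.26 on the log2 scale for Cdkn2c, 1.47 for Cdkn2d, 0.40 for Cdkn2a and -1.50 for Rbl1. Of these 1 of 4, Cdkn2c, was past 4-fold (4.79-fold), against 9.4% of the genes detected on all arrays. The difference between the sources has no replicate and was not tested. Klf1, an erythroid transcription factor, ran in the same order as Cdkn2d, with 2642 and 1725 in wild-type and null fetal liver and 1058 and 3356 in bone marrow.

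One fit left a residual degree of freedom, an additive model of both factors in limma. After Benjamini-Hochberg adjustment over 17663 genes, 0 genes passed 0.05 for genotype and 0 for source, with 423 and 3071 at an unadjusted p under 0.05. The lowest adjusted p of the 7 genes with a value was 0.803 for genotype and, for Cdkn2a, 0.277 for source in limma. On simulated data the fit called 0 of 50 genes changed by 8 on the log2 scale, so the absence of calls says nothing about the genes.

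The wider cell cycle machinery was followed in 56 genes of the same pathway. Between the genotypes in fetal liver 12 of 47 measured genes were higher in null and 4 were lower, and in bone marrow 3 of 44 were higher and 1 was lower. The medians were 0.00 and 0.19, beside -0.14 and -0.03 over all genes. The share past 2-fold was 34.0% in fetal liver and 9.09% in bone marrow, near the backgrounds given above.

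Among cyclins, CDKs and CDK activators, 4 of 10 were higher in null fetal liver, against 15.4% of all genes. None of the 4 was a kinase. The D-type cyclin Ccnd2 read 30.3 in wild type and 181 in null (log2 difference 2.58), and the CDK-activating phosphatase Cdc25a 98.5 and 576 (2.55). The S-phase cyclin Ccna2 differed by 1.35. Ccne1, the cyclin of CDK2, differed by 1.67 with its main probe and by -1.17 with another, so its direction depended on the probe. Cdk4, the target of the INK4 inhibitors, was lower in null fetal liver (4402 and 2082, -1.08) and differed by -1.13 and -0.94 with its other probes. The Cdk4 call ended with normexp (-0.85), quantile normalization (-0.65), spike-in scaling (-0.62) and the probe nearest the 3′ end (-0.94). With normexp Ccnd2 (0.94) and Ccna2 (0.36) also fell under 2-fold. In bone marrow 1 of 12 was higher in null, against 4.54% of all genes. It was the D-type cyclin Ccnd3 (1119 and 2283, 1.03), with 1.41 for its other probe.

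Among the E2F factors and their DP partners, 2 of 9 were higher in null fetal liver, against 15.4% of all genes. They were the repressor-type E2f6 (1.49) and the partner Tfdp1 (1.77, with 0.34 for its other probe). The activator E2f3 was lower, with 58.8 in wild type and 19.5 in null. In bone marrow E2f3 read 26.5 in wild type and was not detected in null, at least 2.65-fold lower. With normexp E2f3 (-0.88 in fetal liver, -0.42 in bone marrow) and E2f6 (0.50) fell under 2-fold, and E2f3 did so with its probes averaged too (-0.27 and 0.00). The activator E2f2 read 136 in wild-type and 409 in null bone marrow (1.59) but 270 and 154 in fetal liver (-0.81). The arrays ranked in the same order for E2f2 as for Cdkn2d. The repressor-type E2f8 was higher in null bone marrow (1.05), but not past 2-fold with normexp (0.56) or the pseudocount (0.78).

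Among 15 E2F target genes, 3 were higher in null fetal liver and 2 lower, against 15.4 and 13.3% of all genes. The replication helicase subunit Mcm4 (2.27) and the ribonucleotide reductase subunit Rrm2 (1.81) were higher, and the polymerase subunit Pola1 was at least 4.11-fold higher. The sliding clamp Pcna (-1.36) and thymidine kinase Tk1 (-1.68) were lower. In bone marrow 0 of 13 E2F targets differed 2-fold between the genotypes, against 12.2% of all genes. Among genes of inhibitor turnover, Skp2, which marks p27 for degradation, and its partner Cul1 were detected in null fetal liver alone, at least 2.65-fold and 2.17-fold above wild type. Both bounds fell to 0 with normexp and under 2-fold on the log2 scale with the pseudocount (0.93 and 0.71) and the position trend removed (0.86 and 0.89), and Cul1 also with the percentile over all probes (0.95). The p53 ligase Mdm2, the partner of Arf, read 62.7 in wild-type and 219 in null fetal liver (1.80) and differed by -0.75 in bone marrow. With normexp the fetal liver differences of Mdm2 (0.84) and Pola1 (0.46) fell under 2-fold, as did that of Pcna with spike-in scaling (-0.90). MuvB represses cell cycle genes together with Rbl1 or Rbl2, in the complex called DREAM. None of the 4 measured genes of the MuvB and DREAM list, which includes Mybl2, differed 2-fold between the genotypes in either source. Of all genes, 28.7% did so in fetal liver and 12.2% in bone marrow. Of the other CDK inhibitors, Cdkn1c (p57) was detected in wild-type fetal liver alone (24.3).

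**Figure D3:**
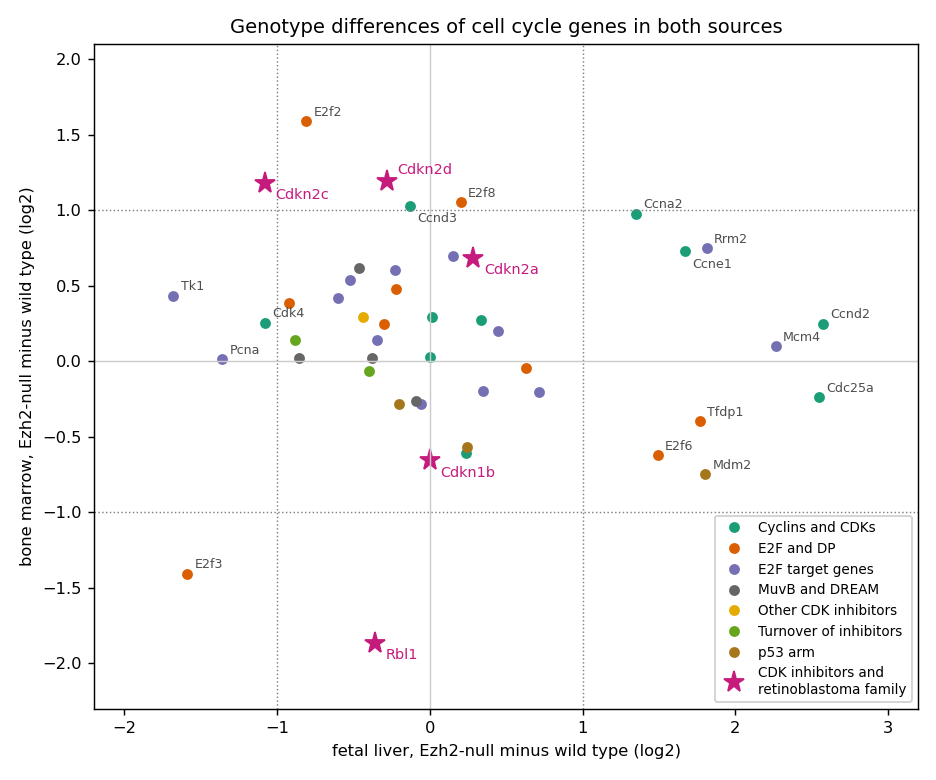
Log2 difference between null and wild type in fetal liver (x axis) and in bone marrow (y axis) for genes with a value in both; circles are pathway genes by group, stars the CDK inhibitors and Rbl1, and dotted lines mark 2-fold. Bounds are drawn at their value. Most named circles lie outside 2-fold along the x axis only, whereas Cdkn2d and Rbl1 lie outside it along the y axis only and Cdkn2c along both, with opposite signs.

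Between the sources, 7 of 43 pathway genes were higher and 7 lower in wild-type bone marrow, against 13.1 and 31.8% of all genes. In null bone marrow 8 and 13 of 48 were higher and lower, against 10.4 and 26.9%. This balance turned with the scaling. Spike-in scaling gave 23 higher and 1 lower in wild type and 26 and 8 in null, and the percentile over all probes 14 and 2 in wild type and 20 and 9 in null. Pcna was higher in bone marrow, with 488 and 2125 in fetal liver and bone marrow of wild type and 190 and 2143 in null (log2 differences 2.12 and 3.50). Ccna2 was lower in bone marrow in both genotypes (-1.55 and -1.92), as were E2f7 (-1.05 and -1.72) and Tfdp2 by its main probe (-2.76 and -2.06). The other Tfdp2 probe went the other way in wild type, detected in bone marrow (29.4) and not in fetal liver (11.6). Mdm2 differed by -0.55 in wild type and -3.10 in null, and Mcm4 by -0.61 and -2.78. Cdc25a was higher in wild-type bone marrow (1.23) and lower in null (-1.55). Cdc6 (1.20), E2f6 (1.40), Tfdp1 (1.50), Lin37 (1.20) and Mcm6 (1.12) were higher in wild-type bone marrow. E2f3 (-1.15) and Mybl2 (-1.06) were lower, and Cdkn1c was lower by a bound. In null cells Mnat1 (1.14), E2f2 (1.41), E2f8 (1.59), Lin37 (1.03), Rbbp4 (1.17), Mcm7 (1.07) and Tk1 (1.19) were higher in bone marrow and Ccnd2 (-1.93) was lower. Cdk7, Skp2, Cul1, Mdm4, Tyms and Pola1 were lower there by bounds of 2.27-fold to 7.95-fold. Under at least 1 alternative 12 of the 14 calls in wild type and 11 of the 21 in null ended. Under spike-in scaling E2f3, E2f7 and Mybl2 turned to higher in wild-type bone marrow, and with another background correction Lin37 turned to lower.

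The fetal liver genotype differences depended on where a probe lay in its transcript. Over all genes the median difference went from -0.49 in the 10% of probes nearest the 5′ end to 0.22 in the 10% farthest from it, while in bone marrow all 10 classes lay between -0.08 and 0.00. For probes at positions 4000 to 5000, where those of Rb1 (4466), Rbl1 (4310) and Rbl2 (4264) lie, the median was 0.20 in fetal liver. The Rb1 and Rbl1 probes there were detected in null fetal liver alone, at bounds of 0.24 and 0.76. The Cdkn1a probe at position 55, dimmer in null fetal liver, lay in the class whose median was -0.49. The part of probe position in these differences was not tested. Once the trend on position was removed, 1 of the 7 genes was past 2-fold in fetal liver, again Cdkn2c.

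**Figure D4:**
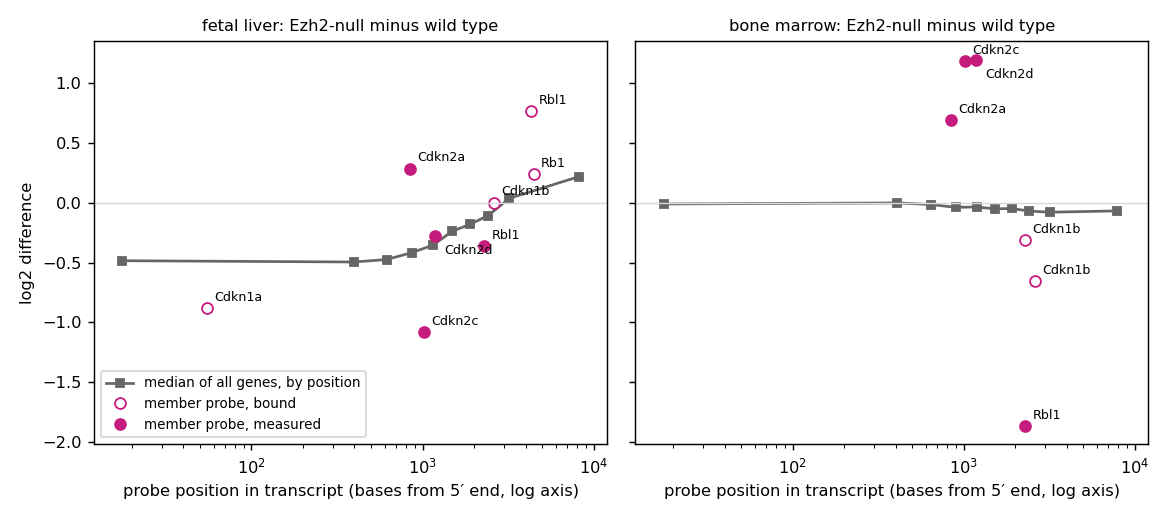
Log2 difference between null and wild type against the position of the probe in its transcript (bases, log axis), in fetal liver (left) and bone marrow (right); squares join the median of all genes in 10 classes of position, filled points are probes detected on both arrays and open points bounds. The line rises from -0.49 to 0.22 in fetal liver and is flat in bone marrow, where Cdkn2c, Cdkn2d and Rbl1 lie more than 1 from it.

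The genes whose pattern over the 4 arrays came closest were sought for the 4 genes detected throughout, among 11167 genes. Closeness was the Euclidean distance between log2 levels centred on each gene's own mean. For Cdkn2c the closest were Btnl10 (0.43) and Ifi27 (0.48), and 2 genes lay within 0.5. Btnl10 read 96.4, 32.8, 511 and 1296 in the order of the groups, lowest and highest on the same arrays as Cdkn2c. For Rbl1 the closest were Il24 (0.28) and LOC100040377 (0.33), with 5 genes within 0.5. Gpc2 lay at 0.17 from Cdkn2d, with 97 genes within 0.5. For Cdkn2a the closest were Cyp2b23 (0.09) and ENSMUST00000107229 (0.10), with 136. The counts within 0.5 are not comparable between the genes, whose levels spanned 4.74 on the log2 scale for Cdkn2c, 2.28 for Rbl1, 1.84 for Cdkn2a and 1.19 for Cdkn2d.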

How the data were processed

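Each of the 4 samples was hybridised to 1 Agilent array with Cy3. The deposited intensity values, including the error of each spot, came from Feature Extraction 10.7.3.1 (GE1_107_Sep09, annotation mm9), which subtracted background and detrended within the array, per the file headers; no step between arrays is recorded. The authors' series table holds the same intensities rounded. All arrays lay on 1 slide with 1 scan date.

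Control and flagged spots (95 to 135 an array) were left out, and the spots of a probe were averaged as log2 processed intensity. A probe counted as detected when over 50% of its spots were well above background. Arrays were scaled to an equal 75th percentile over the 12874 probes detected on all of them. The probe with the highest mean stood for a gene. Where 1 array of a pair detected a gene, the text gives a bound, "at least N-fold", against the higher of the dim array's lowest detected signal (19.3, 13.0, 11.1 and 9.99 for wild-type and null fetal liver, then wild-type and null bone marrow) and the probe's own. Such a bound is a lower limit, and a bound of the wrong sign was set to 0. The within-array log2 SD of repeated spots had a median of 0.0751 to 0.143.

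A call was 2-fold, or 4-fold for a difference of differences. The additive fit used limma 3.58.1 (R 4.3.3), with signals raised to the highest floor, 1 residual degree of freedom and a threshold of 0.05, and was tested on simulated data: the mean estimates of changes of 1 and 8 were 0.99 and 8.07. With no replicate arrays, the residual of this fit is only how far a gene's null-to-wild-type change in bone marrow departs from its change in fetal liver. P-values rest on that departure, which is reported above as a result for Cdkn2c, and not on a spread between animals. Alternatives changed the background correction, scaling, filter, probe choice, pseudocount (16), source of values and probe position. Named were all 9 genes with every probe, pathway genes at least 2-fold apart by genotype or beyond it between sources, and the 2 genes most alike, save 2 genes not reported here. The members and lists were chosen with earlier results of these data known.

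Names were updated through RefSeq (GRCm38.p6). Exon and UTR annotation of the probes and protein sequences were not used here.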

Additional observations from a re-analysis of the deposited data

Results flagged for a closer look

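The genotype difference of Cdkn2c was 2.26 on the log2 scale larger in bone marrow than in fetal liver, because the null array was lower than wild type in fetal liver (-1.08) and higher in bone marrow (1.18). The fetal liver difference fell under 2-fold, and the difference between the sources under 4-fold, with normexp background correction, spike-in scaling and the pseudocount. Each direction comes from 1 array per group, and the difference between the sources was not tested. Cdkn2d (1.47) and Rbl1 (-1.50) did not show opposite signs past 2-fold.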

How the results depend on the processing

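The counts of the 9 genes past 2-fold depended on how dim signals were treated. For the genotypes in fetal liver (1 gene) the count was 0 with normexp background correction, spike-in scaling or the pseudocount, and 2 with the percentile over all probes or no background filter. Between sources it was 6 without the filter and 1 with the pseudocount in wild type (3 genes), and 2 with normexp, median scaling, quantile normalization or the pseudocount in null (4 genes). The count of the 9 genes for the genotypes in bone marrow stayed within 1.5 times of 3 under all 12 alternatives. Past 4-fold for the difference of differences there were 0 with normexp, spike-in scaling or the pseudocount, and 2 without the filter or with all probes averaged, in place of 1. Pathway counts moved to 7 with normexp in fetal liver (16), to 2 with normexp or the pseudocount and 10 without the filter in bone marrow (4), to 24 with spike-in scaling, 22 without the filter and 9 with the pseudocount between wild-type sources (14), and to 34 with spike-in scaling between null sources (21). Between wild-type sources, spike-in scaling turned E2f3 to 0.17, E2f7 to 0.27 and Mybl2 to 0.26, and normexp turned Lin37 to -0.13. The additive fit called 1 of the 9 genes for source without the filter. That setting also called many genes outside the 9, for source and for genotype, while no other setting called any gene on the array. The call is therefore not particular to the 9 genes. Leaving out genes at the floor on every array, chosen after seeing the data, gave 0 for both terms. The causes were not tested. No paired analysis was possible because the groups share replicate number 1 only; source entered the additive fit as a term. With 1 array per group, none could be left out with a residual remaining. The low signals over background of Cdkn1a, Cdkn1b, Cdkn2b, Rb1 and Rbl2, and of Cdkn2a in bone marrow, limit what can be said of them.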

Other observations

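A probe outside the 9 genes by symbol is named ENSMUST00000122348 in the array annotation, where its description names the p21 kinase inhibitor. It lies between the 2 Cdkn1a probes (chr17:29235299-29235358 on mm9) and was singled out after its values were seen. It was detected on every array, with 39.8 ± 5.68 and 35.5 ± 4.45 in wild-type and null fetal liver and 23.6 ± 3.29 and 25.8 ± 3.30 in bone marrow. The genotype differences were -0.17 and 0.13 on the log2 scale, and no pair of arrays differed 2-fold.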
